A study of Oryza sativa with 8 samples.

Results

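The genes described here are the 309 rice genes that the authors' deposited table for leaf sheaths lists as changed by salt, that are absent from the corresponding table for leaf blades, and whose sheath level with salt was at most 50% of control once 1 was added to both levels. They were chosen as identifiers with log2((salt level + 1)/(control level + 1)) of -1 or lower, with a few identifiers left out in advance by name or by position at the start of chromosomes 11 and 12. They make up 309 of the 1998 genes in the sheath table and of the 5827 genes in either table. In the sheath table, 346 genes, or 17.3%, had such a ratio, as did 316 of the 1204 sheath-only genes, or 26.2%, of which 7 were left out as described. Because the sheath levels and the blade table chose these genes, their fall in sheaths is a description here and was not tested again.

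The tissue was leaf of rice (Oryza sativa) grown in hydroponic culture. Leaf sheaths, the lower part of the grass leaf that wraps the stem, and leaf blades were each taken from control plants and from plants given 100 mM NaCl for 24 h, with 2 RNA samples per tissue and condition and thus 8 samples in 4 groups. The series asks about salt tolerance within tissues of a Japanese landrace, compared in physiology with a tolerant and a sensitive variety. The labels name no variety and give no plant age, and whether the 2 samples of each group are from different plants is not stated, so the authors' p-values cover only how far these samples differ, and that spread may be technical.

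The authors deposited 2 tables of genes already selected as changed, with 1 value per group and none per sample. Sheath levels are in a unit that the table does not name, so levels are compared between conditions of a gene and not between genes, and no depth of the sheath libraries is known. The sheath list ends at an adjusted p of 0.004 and the blade list of 4623 genes at q = 0.0499. Absence from the blade table therefore means that a gene was not listed there, not that its blade level stayed the same. Of all listed sheath genes, 54.4% were lower with salt and 60.3% were absent from the blade table.

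Leaves of grasses grow from a zone of dividing cells at their base, and the sheath holds the most basal tissue of the leaf. A cell that divides first copies its DNA: the origin recognition complex (ORC) marks the starting points, the MCM helicase is loaded there and unwinds the strands, and clamp, clamp loader and polymerase build the new ones. New histones package the copies, and cyclins with their kinases then drive the cell into mitosis. In bulk tissue, fewer cells of a type and less RNA per cell cannot be told apart.

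Among the 309 genes, 38 have a name that could be checked, and 33 of these work in DNA replication, chromatin or the division cycle. Across 5 lists of such genes, 70 members had a checked name. The sheath table lists 45 of them and all 45 were lower with salt, against 54.4% of all listed sheath genes. Their median log2 ratio was -1.14, and that of all listed sheath genes, which include higher ones, was -0.65. The 778 lower sheath genes that are not members had a median of -0.82. Since 33 of the 45 are members, chosen for low ratios, and the 778 exclude all members, the choice itself sets these medians apart. Of the 45, 33 were at least halved, 12 fell by less, and 0 were in the blade table. The 33 members are lower in sheaths and absent from the blade table by choice. Only the other 12 could have differed on either point. Of all lower sheath genes, 79.4% were absent from the blade table. Neither this share nor the 54.4% is a like comparison for the 45. The lists were drawn up after these genes had been seen among the members. The counts and medians therefore describe them and give no independent support for a direction or a size of change. The other 271 genes are known here only by identifier, so the named genes are not a ranking of the whole group.

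**Figure D1:**
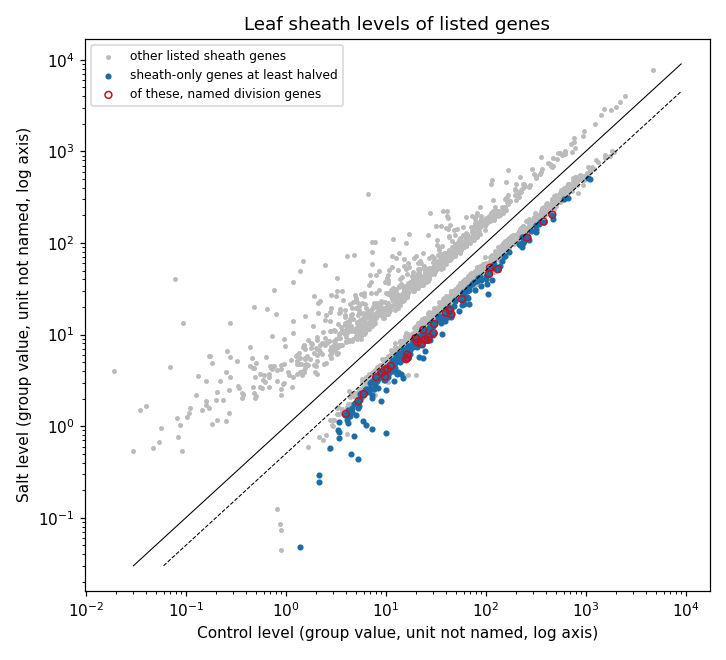
Sheath level in control (x axis) and with salt (y axis) of each listed sheath gene, as group values of unnamed unit on log axes; grey points are other listed genes, blue points the 309 sheath-only genes at least halved, and red rings the 33 named division genes among them. The solid line marks equal levels and the dashed line 50% of control, without the added 1. The 2 genes at 0 with salt and other genes at 0 cannot be drawn. The blue points lie below the dashed line, some at low levels far below it, and run from control levels of 1.40 to 1096.

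A pair of estimates of the change stands in the table for each gene. The listed log2 value is the ratio of the group levels with 1 added, and it chose the genes. The product of the authors' test statistic and its standard error (SE) is taken here as the log2 change that was tested. The SEs below are taken to belong to it. This assumes a statistic that is the change divided by its SE, which the sources used here do not state. Adjusted p-values are those of the authors' test, whose name is not given in the sources used here.

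Replication licensing, the step that prepares origins for copying, had 9 members among 12 checked genes. Members were 15.5% of all listed sheath genes. As the lists were drawn up after the members were seen, their shares are not ranked or set against it. All 6 subunits of the MCM2 to MCM7 helicase were among the 309 genes. In the authors' deposited table MCM2 (Os11g0484300) went from 22.9 in control to 7.91 with salt, MCM3 (Os05g0476200) from 26.9 to 9.37 and MCM4 (Os01g0544450) from 26.3 to 8.77. MCM5 (Os02g0797400) went from 24.8 to 8.81, MCM6 (Os05g0235800) from 16.4 to 6.05 and MCM7 (Os12g0560700) from 16.0 to 5.39 in the authors' deposited table. The helicase works as a ring with 1 copy of each subunit. Members were chosen at -1 or lower and lie close together as a whole, with quartiles of -1.30 and -1.08 for the listed ratio. Whether the 6 genes fell by more similar amounts than other members was not tested. Listed log2 ratios of the 6 ran from -1.48 for MCM4 to -1.31 for MCM6, and the tested changes from -1.54 to -1.40. That span of 0.144 is smaller than the SE of any single subunit, which ranged from 0.219 to 0.240, so no order among the subunits can be read from the table. Adjusted p-values in the authors' deposited table ran from 5.2e-10 for MCM7 to 2.3e-07 for MCM6.

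Of the origin recognition complex, 3 subunits were members. The authors' deposited table gives ORC1 (Os06g0187000) 9.86 in control and 3.48 with salt, ORC3 (Os10g0402200) 5.33 and 1.88, and ORC6 (Os07g0628600) 16.6 and 5.61. ORC1 is the largest subunit and binds ATP, and ORC6 is the smallest. Their tested log2 changes in the authors' deposited table were -1.47 ± 0.226 (SE), -1.47 ± 0.323 and -1.54 ± 0.272, in the range of the helicase genes. For ORC3 the listed ratio of -1.14 is closer to 0 than the tested change, because 1 was added to low levels. ORC2, ORC4 and ORC5 were in neither table, so 9 of 12 checked licensing genes were listed and 9 of 9 were at least halved.

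**Figure D2:**
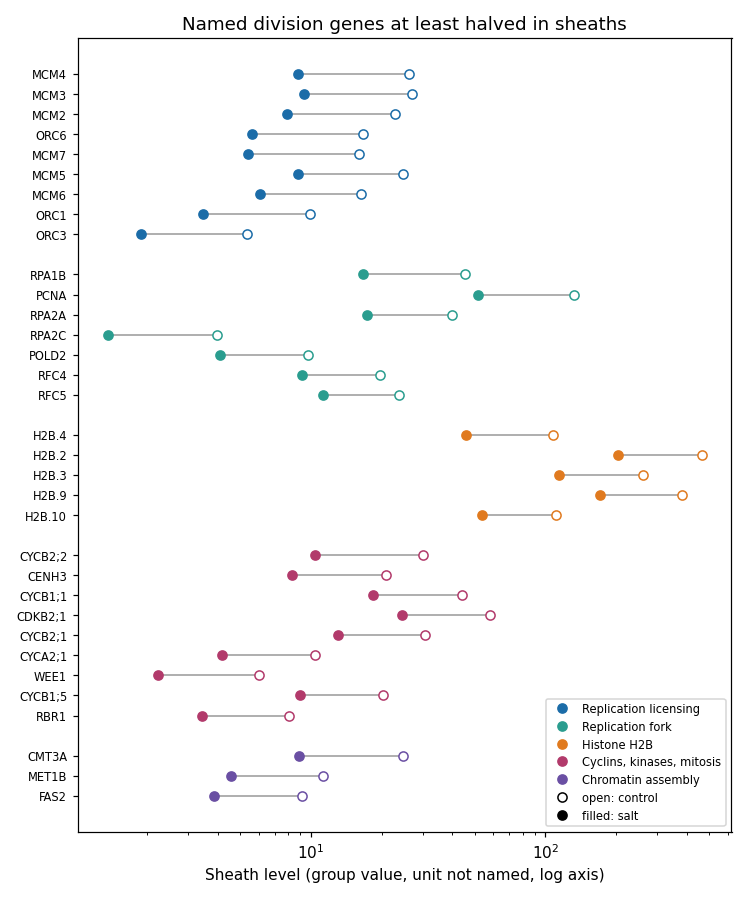
Sheath level of the 33 named division genes at least halved by salt, as group values of unnamed unit on a log axis, with control as open and salt as filled circles, grouped by role. Each line joins 1 gene; in every group of genes the salt value lies left of the control value, from RPA2C at 3.99 and 1.36 to H2B.2 at 464 and 204.

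Genes of the replication fork split into a part that was at least halved and a part that fell by less. PCNA (Os02g0805200), the sliding clamp that holds DNA polymerase on its template, went from 133 to 51.7 in the authors' deposited table, a listed log2 ratio of -1.34 with adjusted p = 5.6e-09. Replication protein A (RPA) coats single-stranded DNA. The authors' deposited table gives RPA1B (Os03g0214100) 45.5 in control and 16.7 with salt, RPA2A (Os02g0829100) 39.9 and 17.4, and RPA2C (Os06g0693300) 3.99 and 1.36. RPA2C is the least precise of these, with a tested change of -1.52 ± 0.400 (SE) and adjusted p = 0.003 in the authors' deposited table. Replication factor C (RFC) loads the clamp. Its subunits RFC4 (Os04g0569000), from 19.8 to 9.17, and RFC5 (Os03g0792600), from 23.7 to 11.3, lay just past the threshold at -1.03 and -1.01 in the authors' deposited table. POLD2 (Os03g0128500), the second subunit of DNA polymerase delta, went from 9.75 to 4.11 there, with a listed ratio of -1.07.

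The other listed fork genes were lower by less than the threshold and also absent from the blade table. In the authors' deposited table these were POLD1, the catalytic subunit of polymerase delta, at -0.92, the flap endonuclease FEN1A at -0.91, RFC3 at -0.83, and RFC2 and RPA1C at -0.74 each. The SEs of the fork genes ran from 0.177 to 0.400, so members such as RFC4 and RFC5 and non-members such as POLD1 are not separated by more than their error. In all 12 of 16 checked fork genes were listed, 7 of them at least halved, with a median listed ratio of -1.02. RPA1A, RPA2B, RFC1 and FEN1B were in neither table.

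Histone H2B is a core protein of the nucleosome, made in bulk while DNA is copied, and rice carries many H2B genes. Of 10 checked genes, 8 were listed, 8 of 8 were lower and 5 were at least halved. H2B.2 (Os08g0490900) went from 464 to 204 in the authors' deposited table and H2B.9 (Os05g0574300) from 380 to 171. Both are among the 8 highest listed control levels of the 309 genes, which are not known to be scaled to gene length. H2B.3 (Os01g0149400) went from 259.7 to 115, H2B.4 (Os01g0149600) from 108 to 45.8 and H2B.10 (Os01g0152300) from 110.4 to 53.7 in the authors' deposited table. The tested changes of these 5 ran from -1.21 to -1.01 with SEs of 0.182 to 0.243. H2B.5, H2B.7 and H2B.6 were lower but less than halved, at listed ratios of -0.91, -0.82 and -0.82 in the authors' deposited table. H2B genes are close copies of each other, and how reads shared between copies were counted is not given in the sources used here, so the values of single copies are uncertain.

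The listed genes of the division cycle proper, a part of those checked, were lower across both mitotic cyclins and their regulators. Cyclins of the A and B classes switch on cyclin-dependent kinases from DNA synthesis to mitosis. CYCB1;1 (Os01g0805600) went from 43.9 to 18.4 in the authors' deposited table, CYCB1;5 (Os05g0493500) from 20.4 to 8.97, CYCB2;1 (Os04g0563700) from 30.6 to 13.0 and CYCB2;2 (Os06g0726800) from 30.2 to 10.4. CYCB2;2 had the lowest ratio of these, at -1.45, and its adjusted p was 1.6e-09 in the authors' deposited table. CDKB2;1 (Os08g0512600), a plant-specific kinase of the passage into mitosis, went from 57.8 to 24.5 and its adjusted p was 1.2e-07 in the authors' deposited table. CYCA2;1 (Os12g0502300) went from 10.4 to 4.19 in the authors' deposited table.

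Genes that restrain the cycle fell beside those that drive it. RBR1 (Os08g0538700), a retinoblastoma-related protein that holds back entry into DNA synthesis, went from 8.04 to 3.42 in the authors' deposited table, and WEE1 (Os02g0135300), a kinase that inhibits cyclin-dependent kinases, from 6.02 to 2.24. CENH3 (Os05g0489800), the histone H3 variant that marks centromeres, went from 20.9 to 8.29 in the authors' deposited table, a tested change of -1.31 ± 0.286 (SE). CDKB1;1 at -0.94, CYCA3;1 at -0.95 and CYCD3;2 at -0.99 were listed just outside the threshold in the authors' deposited table. In total 12 of 26 checked genes of this list were listed and 9 of the 12 were at least halved. The 14 in neither table include the A and B class cyclins CYCB1;3, CYCA1;4 and CYCA3;2 and several D-type cyclins. Also in neither were the A-type kinases CDKA;1 and CDKA;2 and the kinase inhibitors KRP1 and KRP4.

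**Figure D3:**
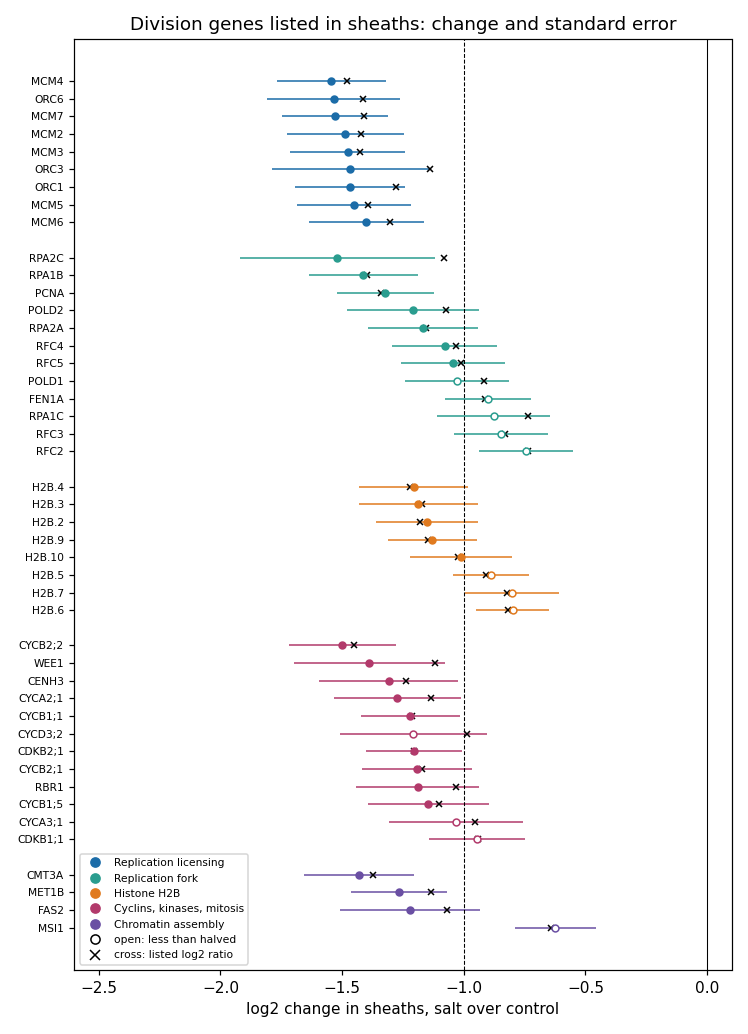
Log2 change in sheaths, salt over control, of the 45 listed division genes, grouped by role; circles are the tested change (statistic times SE) with a bar of 1 SE on either side, crosses the listed log2 ratio, and open circles genes whose listed ratio is above -1 (dashed line). The licensing genes sit between -1.54 and -1.40, while the fork, H2B and cyclin genes lie on both sides of the dashed line.

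Listed sheath genes for proteins that carry DNA methylation and nucleosomes over to new DNA were lower as well. Of 6 checked genes in this list, 4 were listed in sheaths, all 4 of them lower and 3 at least halved. MET1B (Os07g0182900) copies CG methylation onto the new strand and went from 11.2 to 4.57 in the authors' deposited table, with adjusted p = 2.5e-08. CMT3A (Os10g0104900), a chromomethylase of CHG sites, went from 24.7 to 8.91, and its adjusted p was 3.5e-08 in the authors' deposited table. FAS2 (Os08g0108200), a subunit of chromatin assembly factor 1, which deposits histones behind the fork, went from 9.18 to 3.85 in the authors' deposited table. MSI1, which belongs to the same factor, fell by less, at a listed ratio of -0.64. The de novo methyltransferase DRM2 was in the blade table alone, where the authors' deposited table has it lower by a log2 value of -0.37 (q = 0.0483) and its mean TPM goes from 13.4 to 11.8, a log2 ratio of -0.18, and MET1A was in neither. Listed blade log2 values differed from the log2 ratio of mean TPM by a median of -0.19, so small blade changes depend on which is read.

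Marker genes of the tissues that could have been sampled unevenly were also looked up. The KNOX genes OSH1, OSH15, OSH71 and OSH43, which mark shoot meristem, and SHR1, used here as a root marker, were in neither table. CAB2R and RCA, genes of photosynthesis, were listed in blades only and CAB1R in neither. No level is given for an unlisted gene, so the part of dividing tissue in each sheath sample was not tested.

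A few named members lie outside these lists. GRF6 (Os03g0729500), a growth-regulating transcription factor, went from 18.6 to 8.39 in the authors' deposited table. It was the 1 listed gene of 9 checked growth-regulating factors, and the other 8 were in neither table. TUB2 (Os03g0105600), a beta-tubulin and so a building block of microtubules, went from 119 to 53.1 in the authors' deposited table with adjusted p = 7.4e-08. TUB1 and TUB4 were lower in sheaths too, at -0.78 and -0.56 in the authors' deposited table, and yet higher in blades, at 1.56 (q = 5.6e-35) and 0.37 (q = 0.0029). All 5 beta-tubulin genes of the blade table were higher there, and TUB2 was not among them. The sheath and blade changes come from separate tables and their difference was not tested.

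DREB1F (Os01g0968800), of a family of transcription factors known for cold and drought responses, went from 12.04 to 3.08 in the authors' deposited table, a tested change of -1.95 ± 0.384 (SE). Its relative DREB1G was higher, from 16.3 to 29.0, and the other 5 checked family members were in neither table. SWEET11 (Os08g0535200), a sugar exporter of the plasma membrane known for its role in filling grain, went from 12.9 to 5.79 in the authors' deposited table. SWEET13 and SWEET15, of the same family, were higher in sheaths at 0.74 and 3.22, and both were higher in blades as well, at 0.47 and 6.48 in the authors' deposited table. CYP99A3 (Os04g0178400), a cytochrome P450 of momilactone synthesis, was listed at 1.40 in control and 0.048 with salt. Its tested change of -4.84 ± 1.06 (SE) and its listed ratio of -1.20 in the authors' deposited table differ widely, since 1 was added to both low levels.

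**Figure D4:**
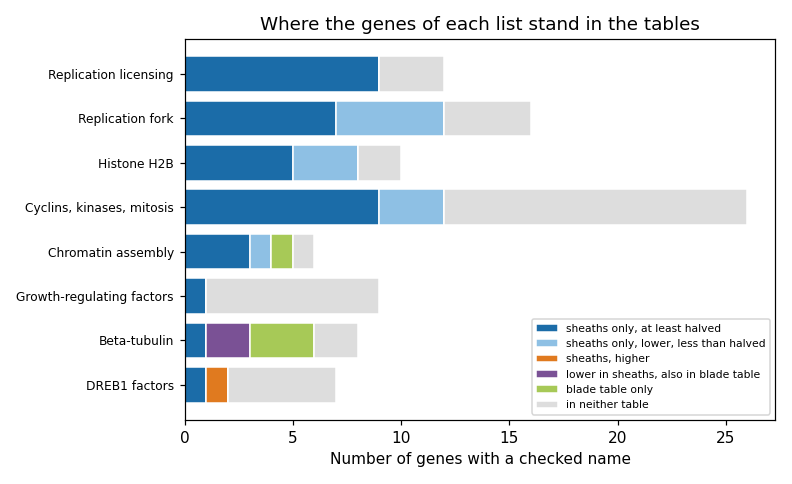
Number of genes with a checked name in each of 8 gene lists (x axis), split by where they stand in the sheath and blade tables; dark blue marks the genes described here. The licensing list holds 9 such genes and 3 in neither table, while growth-regulating factors hold 1 and 8, and beta-tubulins stand out by 5 genes of the blade table.

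Genes of nutrient, hormone and defence pathways were looked up as well. Another 18 lists, on mineral transport, nitrogen, phosphate, hormones, cell wall, defence, clock, sugar, tissue markers, and meristem and cell division, held 207 checked genes. Of these, 31 were in the sheath table, 15 lower and 16 higher, where 45.6% of all listed sheath genes were higher. Members were 3: SWEET11, CYP99A3 and PCNA, which is also counted among the 33 division genes. Over all listed sheath genes, 15.5% were members, so a count of 3 among 31 gives no reading of these pathways. Among sheath-only genes that fell by less were the root potassium channel gene AKT1, at -0.93, NRAMP5, a manganese and cadmium transporter gene, at -0.92, and AOS1, of jasmonate synthesis, at -0.95 in the authors' deposited table.

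Most of the 309 genes fell by not much more than the threshold. Their control levels in the authors' deposited table ran from 1.40 to 1096 with a median of 18.4, and their salt levels from 0 to 510.4 with a median of 7.30. Listed log2 ratios of the members had a median of -1.17 and quartiles of -1.30 and -1.08. At -2 or lower were 3 genes, and 23 more were at -1.5 or lower. The median SE of the tested change was 0.246 for the members and 0.174 for the other 778 lower sheath genes. Those 778 had a higher median control level, 62.2 in the unnamed unit against 18.4, so the SEs are not compared at like levels.

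The threshold cuts through a continuous range. Just inside it stood Os07g0484500 at the threshold itself, Os08g0184300 at -1.001 and Os02g0114200 at -1.002, and just outside it Os08g0156800 and Os04g0496300 at -0.999 and Os07g0475800 at -0.997 in the authors' deposited table. By the tested change, 303 of the 309 genes were also at -1 or lower and 6 were not. The tested change was lower than the listed ratio for 251 genes.

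Among genes without a checked name, Os10g0334500, Os10g0191300 and Os12g0217800 had the lowest ratios and salt levels under 1. Os10g0334500 went from 10.1 to 0.852 in the authors' deposited table, a listed ratio of -2.58 and a tested change of -3.52 ± 0.634 (SE). Os10g0191300 went from 5.33 to 0.441 (-2.13) and Os12g0217800 from 7.29 to 0.943 (-2.09) there. Of the 10 lowest, Os01g0768333 had the highest control level, 106, and 27.9 with salt. The others were Os07g0561300, Os06g0546500, Os01g0216000, Os07g0126301, Os02g0626532 and Os02g0626600, at listed ratios from -1.91 to -1.77. Os07g0416900 and Os11g0654100, at control levels of 1.66 and 1.93, were listed at 0 with salt, and no fold is given for them.

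By listed control level, which is not known to be scaled to gene length, 6 of the 8 highest members had no checked name. The authors' deposited table gives Os09g0484200 1096 in control and 504.7 with salt, Os12g0508300 1047 and 510.4, and Os11g0433900 670.2 and 309. Os12g0405700, Os01g0866200 and Os06g0555400 followed, at listed ratios of -1.01, -1.35 and -1.01. The lowest adjusted p-values, 9.1e-21, 2.2e-20 and 4.7e-16, belonged to Os03g0823800 (68.7 to 21.7), Os08g0192900 (115 to 39.2) and Os02g0626532 (9.04 to 1.88) in the authors' deposited table. The highest, 0.004 as rounded in the table, was shared by 7 members, among them Os02g0459300, Os04g0468600 and Os02g0768300.

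Position along the chromosomes entered the choice only through the identifiers left out at the start of chromosomes 11 and 12. The genes lie on all 12 chromosomes, from 11 genes on chromosome 11 to 43 each on chromosomes 1 and 3, and made up between 12.6% (chromosome 11) and 21.6% (chromosome 12) of the listed sheath genes there, with the left-out identifiers removed from both counts. Locus numbers run along a chromosome, and 36 of the 309 genes, or 11.7%, lay within 1000 locus numbers of another. Over the other 1689 listed sheath genes 52.8% had such a neighbour among themselves, but this share grows with the number of genes, so the lists cannot be compared by it. Runs of at least 3 neighbours were 2. On chromosome 6, Os06g0159450, Os06g0159700, Os06g0159725 and Os06g0160000 had control levels of 57.4 to 232 and ratios from -1.53 to -1.36 in the authors' deposited table. On chromosome 2, Os02g0699433, Os02g0699466, Os02g0699700 and Os02g0700100 had control levels of 18.4 to 58.9 and ratios from -1.22 to -1.08. Neighbours may be close copies or overlapping gene models that share reads, which was not tested.

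How often a listed sheath gene was absent from the blade table varied with its change in sheaths. Of the genes at least halved, with the identifiers left out above set aside, 309 of 339, or 91.2%, were absent from it. The share was 74.1% (540 of 729) among genes that were lower but not halved. Among genes higher by less than a doubling it was 44.1% (214 of 485), and among those at least doubled 29.0% (117 of 404). These shares come from lists with different thresholds and no test was made on them.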

How the data were processed

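The labels' protocols describe total RNA from leaves, a DNase step and an mRNA library kit. HISAT is named in the submitters' processing notes without a version, beside the genome build mm10, which is a mouse build and not one these rice loci can come from. For the rice build, the annotation, the counter and the test, the sources used here give no name.

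Per the file headers, the sheath table deposited by the authors gives a log2 fold change, an expression signal of unnamed unit per group, a standard error, a test statistic (a score) and p-values before and after adjustment. The listed log2 value equals log2 of salt over control with 1 added to each level, within 0.0014. Per the file headers, the blade table deposited by the authors gives a log2 fold change, mean TPM, mean FPKM, an estimated count of reads (the mean of a group) and a q-value. Blade columns named as a case were taken as salt. All columns were mapped, 0 being left over.

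No new test was made, because the tables hold group values of selected genes. Computed here were the membership, counts, medians, quartiles and runs of neighbours within 1000 locus numbers, with Python 3.11.15, pandas 2.3.3, numpy 2.4.6 and matplotlib 3.10.9. The counting steps were tested on simulated data. The members and lists were chosen with earlier results of these data known, and 8 of the lists after the members' values had been seen. The planned search for promoter motifs was not made, as no promoter sequences were at hand.

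No file gives names for the identifiers. Names came from general knowledge as 384 pairs and were kept where RefSeq's gene table (assembly ASM3414082v1) had the name on the same chromosome and in the same order as the locus numbers: 298 passed, 80 were not in the table, 3 were on another chromosome and 3 out of order. The check places a name near its identifier and does not prove the pair. Only the pairs that passed are counted or named. Named are all members with a checked name, and members by rank: the 10 lowest ratios, the 8 highest control levels, the 3 lowest and 3 highest adjusted p-values, the 3 genes on either side of the threshold, runs of at least 3 neighbours, and genes at 0. Sheath rows with another form of identifier, 3 in number, were kept in counts only.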

Additional observations from a re-analysis of the deposited data

How the results depend on the processing

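No paired analysis was possible because the tables hold group values only, and for the same reason no replicate could be left out. The 309 genes became 396 with 0.1 added to the levels in place of 1, 370 with 0.5 added, 380 by the tested change, 286 with a control level of at least 5, 280 at an adjusted p of at most 0.001, and 322 with the blade table held to the sheath threshold of 0.004. A log2 ratio of -1.5 or lower left 26, fewer by construction. All 309 remained with 0.1 or 0.5 added, by construction, since a smaller added number only deepens a fall. By the tested change, 303 of them remained. The share of halved genes absent from the blade table was 91.2%, 91.0% with 0.1 added, 90.8% with a control level of at least 5, and 95.0% with the blade table held to the sheath threshold, where fewer blade genes count as listed. With 0.1 added, AKT1 brought the count of potassium and sodium transport genes from 0 to 1. Of the lists chosen after seeing the data, the cyclin list went from 9 to 11 members and the fork list from 7 to 8, with 0.1 added and by the tested change alike. Members with a neighbour numbered 24 at a distance of 500 locus numbers and 59 at 2000, both chosen after seeing the data. Depth limits are unknown for the sheath libraries.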
